A study of Mus musculus with 2 samples.

Results

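The Adarb2+ Reln-low nuclei are a set of mouse hippocampal nuclei with counts of the GABA-synthesis genes Gad1 or Gad2. They carry RNA of Adarb2, an RNA-editing family member that marks interneurons born in the caudal ganglionic eminence. They hold little RNA of Reln, the secreted protein reelin. For 39 of the 194 nuclei, other genes go against the name interneuron, as given below. A further 15 nuclei form a cluster in which markers of oligodendrocyte precursors were higher as well. The nuclei were chosen by measured counts: a nucleus belonged to the set when it had at least 500 detected genes and at most 5% mitochondrial counts, 3 or more counts of Gad1 and Gad2 together, 5 or more of Adarb2, at most 2 of Reln, at most 2 of Slc17a7 and at most 1 of Mobp and Mog together. Counts are UMIs, the molecular tags that stand for single captured RNA molecules. Of 13635 nuclei kept, 194 met these limits, 89 of 7211 in the Capza2+/- library and 105 of 6424 in the wild-type library. Capza2 encodes an alpha subunit of the capping protein that binds the barbed ends of actin filaments. The Capza2+/- mice carry a heterozygous knockout and the other mice are wild type, and the labels name no further allele or treatment for either. Nuclei came from hippocampal tissue labelled as mixed neurons and glia and were captured with the droplet-based 10x 3' v3 chemistry. The labels leave out the age, sex and number of the animals and the part of Capza2 that was removed.

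Interneurons of the caudal ganglionic eminence settle in all hippocampal layers and differ in the peptides and receptors they use. Vip cells release vasoactive intestinal peptide and mostly inhibit other interneurons, while Cck basket cells release cholecystokinin, wrap the bodies of pyramidal cells and carry the cannabinoid receptor Cnr1 on their terminals. Neurogliaform cells, many of them Reln+ and Lamp5+, form another large class, which the limit on Reln sets apart.

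The Capza2+/- library held 7801 barcodes and 62702888 UMIs, and the wild-type library 6512 barcodes and 58701532 UMIs. The filters left out 590 barcodes of the Capza2+/- library and 88 of the wild-type library. The set's nuclei had a median of 9341 UMIs and 3444 genes in the Capza2+/- library and 9693 UMIs and 3507 genes in the wild-type library, and summed to 1071748 UMIs in the Capza2+/- library and 1267321 in the wild-type library. The libraries shared 13 barcodes, of which 1 belonged to a nucleus of the set. Doublet calling marked 5 Capza2+/- nuclei of the set (5.62%) and 4 wild-type nuclei (3.81%), and none was removed. There is 1 library per genotype, so no difference between genotypes below has a replicate check, and every interval is a 95% interval that covers counting error only.

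Gad1 and Gad2 make the GABA-synthesising enzymes, Slc17a7 the glutamate transporter of excitatory neurons, and Mobp and Mog myelin proteins. Most nuclei stood well away from the Adarb2 limit and fewer from the Gad limit. With all other limits met, 3 Capza2+/- and 2 wild-type nuclei had exactly 5 Adarb2 UMIs, and 1 nucleus of each library had 4 and was left out. Exactly 3 Gad UMIs were counted in 30 Capza2+/- and 26 wild-type nuclei of the set, and 117 Capza2+/- and 82 wild-type nuclei with 2 Gad UMIs fell just outside. For Reln, 6 Capza2+/- and 10 wild-type nuclei sat at the limit of 2 UMIs, with 5 Capza2+/- and 6 wild-type nuclei just beyond it at 3. For Slc17a7, 17 Capza2+/- and 13 wild-type nuclei had 2 UMIs, and 7 Capza2+/- and 8 wild-type nuclei with 3 UMIs were left out. For Mobp and Mog, 6 nuclei of each library had 1 UMI, and 2 nuclei of each with 2 UMIs were left out.

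The working name for these nuclei is Adarb2 interneurons without Reln, mostly of the Vip and Cck types, and the counts match that name for some of them. Vip reached 3 or more UMIs in 34 of 194 nuclei (17.5%), 15 of 89 in the Capza2+/- library (16.9%, 95% Clopper-Pearson interval 9.75 to 26.3%) and 19 of 105 in the wild-type library (18.1%, 11.3 to 26.8%). A further 46 nuclei had at most 2 Vip UMIs and 10 or more of Cnr1, 20 in the Capza2+/- library (22.5%) and 26 in the wild-type library (24.8%). Neither limit was met by 114 nuclei (58.8%), 54 Capza2+/- and 60 wild-type. With a lower limit, 130 of the 194 nuclei, 59 Capza2+/- and 71 wild-type, had 3 or more UMIs of Vip, Cck or Cnr1, and 120 of the 155 outside the cluster led by Glis3 and Chst9 did. Only 6 nuclei, 3 in each library, had both 3 or more Vip UMIs and 10 or more Cnr1 UMIs. The set was divided into 8 clusters on its own variable genes, with the genes of the selection rule and Capza2 left out, and these clusters are called here by their leading genes. Some listed markers, such as Vip, Slc17a8, Lamp5 and Glis3, are also leading genes. The levels, list sums and counts of list genes by cluster below therefore describe the division and do not test it.

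The Vip/Egfr cluster held 18 nuclei and the Grm8/Thsd7a cluster 23. Vip summed to 3230 CPM (counts scaled to a total of 1000000 UMIs) in the Vip/Egfr cluster and 716 CPM in the Grm8/Thsd7a cluster, and 26 of the 34 nuclei with 3 or more Vip UMIs lay in these clusters. The Vip/Egfr cluster had a Vip UMI in all 18 of its nuclei. Its other leading genes were Egfr, a growth factor receptor, and the adhesion molecule Cntn4. The Grm8/Thsd7a cluster was led by Grm8, a metabotropic glutamate receptor, and Thsd7a. Penk, the precursor of enkephalin, stood at 236 CPM in the Vip/Egfr cluster and 266 CPM in the Grm8/Thsd7a cluster and at 13.0 CPM or less in each of the others. The list of 16 Vip-type markers summed to 5809 CPM in the Vip/Egfr cluster, with 11 of its genes more than 2-fold above the rest of the set, and to 3889 CPM in the Grm8/Thsd7a cluster, with 12.

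The Slc17a8/Yjefn3 cluster held 37 nuclei and the Pex5l/Ntng1 cluster 24. Cnr1 was at 1928 CPM in the Slc17a8/Yjefn3 cluster and 1245 CPM in the Pex5l/Ntng1 cluster, and at 20.2 to 574 CPM in the others. Cck was at 1081 CPM in the Slc17a8/Yjefn3 cluster and 581 CPM in the Pex5l/Ntng1 cluster, against 118 to 199 CPM elsewhere in the set. The Slc17a8/Yjefn3 cluster was led by Slc17a8, a vesicular glutamate transporter that some Cck basket cells also carry, with 195 CPM against 9.28 CPM in the rest of the set. Adarb2 itself reached 26442 CPM there, its highest level among the 8 clusters. The list of 16 Cck-type markers summed to 5653 CPM in this cluster, with 12 genes more than 2-fold above the rest. Slc17a8 reached 3 UMIs in 14 nuclei of the set, and 13 of these also had 10 or more Cnr1 UMIs.

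Another 23 nuclei formed the Mctp2/Pde11a cluster, in which Hapln1, Pld5 and Lamp5 were among the leading genes. Lamp5, a lysosome-associated membrane protein that marks neurogliaform cells, was at 257 CPM there, and no Vip UMI was counted in its 23 nuclei, which allows a share with a UMI of up to 13.0%. The list of 16 neurogliaform and Lamp5 markers summed to 4403 CPM in it, with 10 genes more than 2-fold above the rest of the set. The Adgrg6/Chrm2 cluster held 15 nuclei, with the muscarinic acetylcholine receptor Chrm2 at 2673 CPM against 56.9 CPM in the other nuclei of the set. The Sox6/Foxp2 cluster also held 15 nuclei, had a median of 20157 UMIs per nucleus, and held 5 of the 9 nuclei called as doublets. Sox6, a factor of interneurons from the medial ganglionic eminence, was at 341 CPM there against 8.37 CPM in the rest, while 2 of its 15 nuclei had a Foxp2 UMI. The 20 medial ganglionic eminence markers summed to 6807 CPM in this cluster against 2745 CPM in the rest, with 11 more than 2-fold higher. The 10 oligodendrocyte precursor markers summed to 2206 CPM against 963 CPM, with 8 more than 2-fold higher. The nuclei of this cluster are not given a cell type name here.

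The Glis3/Chst9 cluster was the largest, with 39 nuclei, and its genes go against the name interneuron. Slc32a1, the vesicular transporter that loads GABA, had no UMI in any of its 39 nuclei, which allows a share of up to 7.69%, while the other clusters had 32.1 to 108 CPM. Erbb4, the neuregulin receptor of most interneurons, had a UMI in 8 of its 39 nuclei and summed to 228 CPM, against 3667 to 13330 CPM in the other clusters. The list of 12 dentate granule markers summed to 7919 CPM, against 1242 CPM in the rest of the set, with all 12 more than 2-fold higher. The median nucleus of the cluster had 62 UMIs of this list in the Capza2+/- library and 78 in the wild-type library, against 9.5 in Capza2+/- and 8 in wild-type nuclei of the rest. The list of 12 astrocyte markers summed to 3361 CPM, against 544 CPM in the rest, but 1 nucleus of each library carried much of that sum. The Capza2+/- nucleus with the most had 386 of 629 UMIs and the wild-type one 345 of 700, while the medians were 7 UMIs per Capza2+/- nucleus and 10.5 per wild-type nucleus. Gad1 was at 263 CPM, against 191 to 389 CPM in the other clusters, and Gad2 at 78.4 CPM, against 120 to 607 CPM. The rule set a minimum for Gad1 and Gad2 together in every nucleus. The Gad levels were therefore held up by the choice of nuclei and are not read for or against a cell type. Adarb2 was at 2276 CPM, and Slc17a7, which the rule allows at up to 2 UMIs, at 119 CPM. Dentate granule cells of rodents are known to make some Gad1. These nuclei are not given a cell type name here, and results that they could carry are also given for the 155 nuclei without them, a division made after the clusters had been seen.

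**Figure D1:**
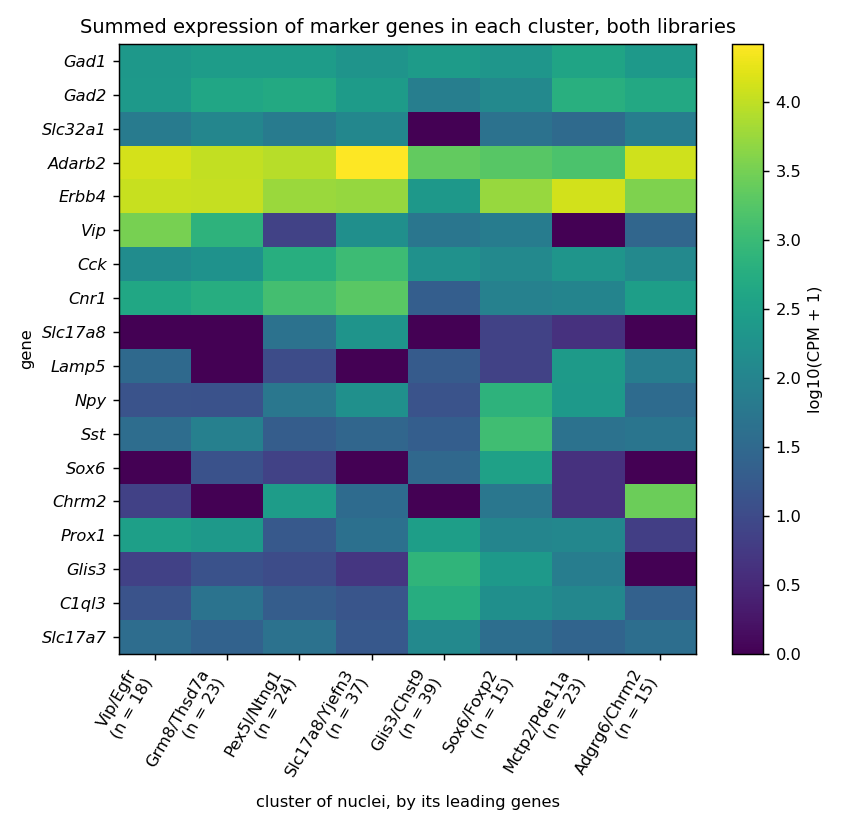
Summed level of 18 marker genes (rows) in the 8 clusters of Adarb2+ Reln-low nuclei (columns, with the number of nuclei), both libraries together, as log10(CPM + 1). Vip is brightest in the Vip/Egfr cluster (3230 CPM), Cck and Cnr1 in the Slc17a8/Yjefn3 cluster, and the Glis3/Chst9 column is dark for Slc32a1 and low for Erbb4 (228 CPM).

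**Figure D2:**
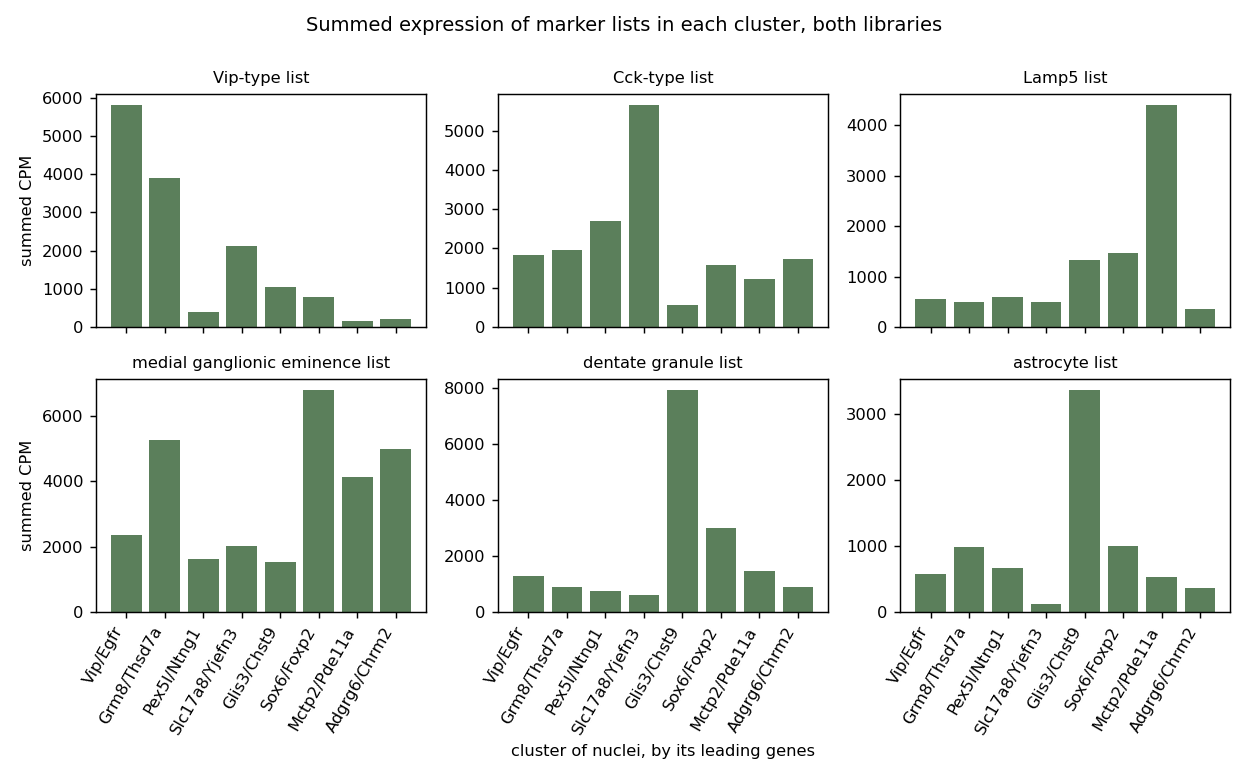
Summed CPM of 6 marker lists (panels) in the 8 clusters of Adarb2+ Reln-low nuclei, both libraries together, with no error bars since the clusters were made from the same counts. The Vip-type list is highest in the Vip/Egfr cluster (5809 CPM), the Cck-type list in the Slc17a8/Yjefn3 cluster (5653 CPM), the Lamp5 list in the Mctp2/Pde11a cluster (4403 CPM), and the dentate granule and astrocyte lists in the Glis3/Chst9 cluster (7919 and 3361 CPM), where single nuclei with 386 and 345 UMIs hold much of the astrocyte sum.

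The study set out to compare how many cells of each kind the 2 genotypes hold. The set made up 1.23% of nuclei kept in the Capza2+/- library (0.992 to 1.52%) and 1.63% in the wild-type library (1.34 to 1.98%), a ratio of 0.755 with an interval of 0.563 to 1.01. Set against all Gad nuclei, the share was 30.4% in the Capza2+/- library (89 of 293, 25.2 to 36.0%) and 29.5% in the wild-type library (105 of 356, 24.8 to 34.5%), a ratio of 1.03 (0.768 to 1.38). The ratio over nuclei kept was thus close to that of all Gad nuclei, which was 0.733 (0.626 to 0.858). The Reln+ Adarb2 nuclei, with 46 in the Capza2+/- library and 65 in the wild-type library, had a ratio of 0.630 (0.423 to 0.934), and the Gad nuclei with 4 or fewer Adarb2 UMIs, with 158 in the Capza2+/- and 186 in the wild-type library, had 0.757 (0.608 to 0.941). Without the Glis3/Chst9 cluster the set's shares were 0.915% in the Capza2+/- library and 1.39% in the wild-type library, a ratio of 0.661 (0.473 to 0.919). Fewer nuclei of a kind in the tissue and a lower yield of their nuclei in 1 library cannot be told apart.

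The Glis3/Chst9 cluster took 23 of 89 nuclei in the Capza2+/- library (25.8%, 17.1 to 36.2%) and 16 of 105 in the wild-type library (15.2%, 8.97 to 23.6%), a ratio of 1.70 (0.858 to 3.43). The Pex5l/Ntng1 cluster had 12 nuclei in each library, and the Adgrg6/Chrm2 cluster 6 Capza2+/- and 9 wild-type nuclei. The Slc17a8/Yjefn3 cluster had 17 Capza2+/- and 20 wild-type nuclei, the Vip/Egfr cluster 7 Capza2+/- and 11 wild-type nuclei, and the Grm8/Thsd7a cluster 9 Capza2+/- and 14 wild-type nuclei. The Sox6/Foxp2 cluster had 8 Capza2+/- and 7 wild-type nuclei and the Mctp2/Pde11a cluster 7 Capza2+/- and 16 wild-type nuclei. For these last 5 clusters the sizes are given as counts only, because some of the genes that define them differed between the libraries. The ratio of the shares with 3 or more Vip UMIs, which did not use the clusters, was 0.931 (0.440 to 1.93).

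Capza2 (chr6:17636234-17666972, plus strand, mm10), the targeted gene, had 61 UMIs in the set's Capza2+/- nuclei and 98 in its wild-type nuclei. That was 56.9 CPM (43.5 to 73.1) in the Capza2+/- library and 77.3 CPM (62.8 to 94.2) in the wild-type library, a log2 ratio of -0.44 with an interval of -0.93 to 0.03 that includes 0. No nucleus had more than 3 Capza2 UMIs in the Capza2+/- library or 4 in the wild-type library, and both medians were 1. Without the Glis3/Chst9 cluster the log2 ratio was -0.60 (-1.18 to -0.05), with 42 Capza2+/- and 82 wild-type UMIs. In nuclei of the same libraries with more counts it was -0.37 (-0.48 to -0.25) among Slc17a7 nuclei and -0.65 (-0.92 to -0.39) among Mobp or Mog nuclei. Capza1, the other widely made alpha subunit, had 67 UMIs in each library's set (log2 ratio 0.24, -0.27 to 0.75), and Capzb, the beta subunit, had 43 in the Capza2+/- nuclei and 46 in the wild-type nuclei (0.14, -0.49 to 0.78). Of the 16 genes listed for capping protein and its regulators, 6 had enough counts and none of them differed 1.5-fold, while without the Glis3/Chst9 cluster 1 did, Capza2 itself. The actin genes showed no common shift of that size either: 1 of 20 with enough counts, Pfn2, an actin-monomer-binding profilin, was 1.5-fold higher in the Capza2+/- nuclei (64.4 against 40.2 CPM, log2 ratio 0.68, 0.13 to 1.23), 14 of the 20 lay below 0, and the median log2 ratio was -0.11. Without that cluster Pfn2 was at 0.57 (-0.03 to 1.18) and no actin gene past the floor differed 1.5-fold. Of all 3959 genes with enough counts, 2.02% were 1.5-fold or more higher and 1.89% lower. Without that cluster the shares were 1.73% and 2.64% of 3296 genes.

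Adarb2 (chr13:8202866-8768747, plus strand) had 5, 45 and 1166 UMIs at the lowest, median and highest nucleus in the Capza2+/- library and 5, 70 and 867 in the wild-type library. Vip (chr10:5639218-5647617, plus strand) had a UMI in 20 of 89 Capza2+/- nuclei (22.5%, 14.3 to 32.6%) and 24 of 105 wild-type nuclei (22.9%, 15.2 to 32.1%). For comparison, Slc17a7 nuclei had a Vip UMI in 2.61% of cases in the Capza2+/- library and 2.56% in the wild-type library. Their median depths were 13459 UMIs in the Capza2+/- and 12944.5 UMIs in the wild-type library. Whether free RNA in the droplets gave these Vip UMIs was not tested. Among nuclei with 3 or more Vip UMIs, the lowest, median and highest were 3, 24 and 59 UMIs in the Capza2+/- library and 3, 15 and 62 in the wild-type library, so the groups overlapped over nearly their whole range. Summed Vip was 386 CPM (350 to 425) in the Capza2+/- nuclei and 282 CPM (254 to 313) in the wild-type nuclei, a log2 ratio of 0.45 (0.24 to 0.66). In the Vip/Egfr cluster alone it was 4197 CPM over 7 Capza2+/- nuclei and 2681 CPM over 11 wild-type nuclei.

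Cck (chr9:121489824-121495694, minus strand) summed to 431 CPM in the Capza2+/- nuclei and 399 CPM in the wild-type nuclei, a log2 ratio of 0.11 with an interval of -0.07 to 0.30. A Cck UMI was found in 77.5% of the Capza2+/- and 86.7% of the wild-type nuclei, but also in 84.7% of Capza2+/- and 82.3% of wild-type Slc17a7 nuclei and in 57.7% of Capza2+/- and 55.9% of wild-type Mobp or Mog nuclei. A single Cck UMI therefore did not tell the set from other nuclei. Cnr1 (chr4:33924593-33948831, plus strand) had a UMI in 54 of 89 Capza2+/- nuclei (60.7%) and 73 of 105 wild-type nuclei (69.5%), against 8.71% of Capza2+/- and 11.3% of wild-type Mobp or Mog nuclei. Summed Cnr1 was 629 CPM in the Capza2+/- nuclei and 769 CPM in the wild-type nuclei, a log2 ratio of -0.29 (-0.43 to -0.15). Without the Glis3/Chst9 cluster, which had 8 of its UMIs in 3 nuclei, the Cnr1 ratio was -0.18 (-0.33 to -0.04). Erbb4 followed the same pattern, with medians of 46 UMIs per Capza2+/- nucleus and 60 per wild-type nucleus and a log2 ratio of -0.28, or -0.18 without that cluster.

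**Figure D3:**
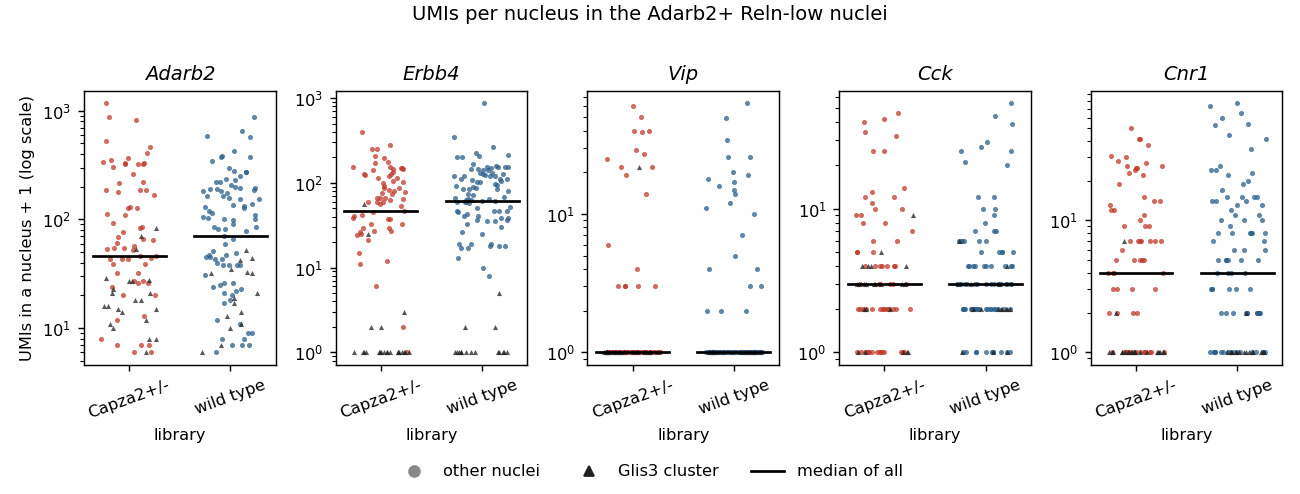
UMIs per nucleus, plus 1 on a log axis, of Adarb2, Erbb4, Vip, Cck and Cnr1 in the Adarb2+ Reln-low nuclei of the Capza2+/- library (left in each panel, n = 89) and the wild-type library (right, n = 105); triangles are the Glis3/Chst9 cluster and lines the medians. The libraries overlap in every panel, Vip and Cnr1 have a median of 0 and 3 UMIs in both libraries, and most triangles sit at 0 for Erbb4.

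The promoters of both peptide genes are shown because Vip and Cck are the namesakes of the main kinds in the set. They come from RefSeq on GRCm38.p6 and span the transcription start, printed 5' to 3' on the gene's strand. Capitals mark TGACG or its reverse complement CGTCA, the core letters of the cAMP response element, searched on both strands with overlapping matches each counted.
Vip, chr10:5638968-5639267, plus strand: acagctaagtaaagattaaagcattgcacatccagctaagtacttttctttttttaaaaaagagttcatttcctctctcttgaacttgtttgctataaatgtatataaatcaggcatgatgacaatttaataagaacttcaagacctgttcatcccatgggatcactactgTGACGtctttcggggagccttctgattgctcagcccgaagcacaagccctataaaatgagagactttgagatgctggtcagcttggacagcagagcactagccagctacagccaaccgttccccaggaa
Cck, chr9:121495645-121495944, minus strand: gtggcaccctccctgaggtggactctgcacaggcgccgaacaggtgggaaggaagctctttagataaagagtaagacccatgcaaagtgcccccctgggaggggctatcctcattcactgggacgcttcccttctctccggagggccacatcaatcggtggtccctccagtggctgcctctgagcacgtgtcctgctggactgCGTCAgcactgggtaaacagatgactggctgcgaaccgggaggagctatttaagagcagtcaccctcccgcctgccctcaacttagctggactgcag
Each of these windows held 1 match. The motif was found in 6837 of 32851 promoter windows of the same length (20.8%). Counted by gene, it was found in 13 of the 17 neuropeptide precursor genes with a window (76.5%), against 6228 of all 27025 genes with one (23.0%). A match describes letters in the window and not binding.

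Genes were compared between genotypes where the set had at least 100 UMIs over both libraries and a UMI in at least 10% of its nuclei. Of 3959 such genes, 2.02% were 1.5-fold or more higher in the Capza2+/- nuclei (80 genes) and 1.89% were 1.5-fold or more lower (75 genes), and the median log2 ratio was -0.02. Several of the 12 highest and 12 lowest genes, ranked by the interval bound nearest 0, were carried by few nuclei. Sst, the precursor of somatostatin, had 381 UMIs in the Capza2+/- nuclei and 55 in the wild-type nuclei, a log2 ratio of 3.03 (2.62 to 3.47). But 352 of the 381 lay in 1 nucleus of the Sox6/Foxp2 cluster, and an Sst UMI was found in 29.2% of the Capza2+/- and 41.0% of the wild-type nuclei. The same nucleus, which had 20157 UMIs and was not called a doublet, held 218 of the 300 UMIs of Npy, the precursor of neuropeptide Y, in the Capza2+/- nuclei. Npy had 113 UMIs in the wild-type nuclei and a log2 ratio of 1.65. With the nucleus of most UMIs left out in each library, the log2 ratios were -0.58 for Sst and -0.065 for Npy. Olfm3, an olfactomedin of synapses, had 51 of its 153 Capza2+/- UMIs in another nucleus of that cluster, which was called a doublet, against 90 UMIs over all wild-type nuclei.

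Ttr, which encodes the thyroid hormone carrier transthyretin and is made mainly by the choroid plexus, was higher in the Capza2+/- nuclei in all 8 clusters. It had 141 UMIs in 67 of 89 Capza2+/- nuclei (75.3%, 65.0 to 83.8%) and 48 in 34 of 105 wild-type nuclei (32.4%, 23.6 to 42.2%), a log2 ratio of 1.80 (1.31 to 2.30). The counts per nucleus were low, with at most 9 UMIs in a Capza2+/- nucleus and 5 in a wild-type nucleus. Like shares were seen in nuclei of other kinds: 72.0% of Capza2+/- and 28.2% of wild-type Slc17a7 nuclei, and 72.9% of Capza2+/- and 30.3% of wild-type Mobp or Mog nuclei, had a Ttr UMI. The list of 10 choroid plexus markers summed to 273 UMIs in the set's Capza2+/- nuclei and 167 in its wild-type nuclei (log2 ratio 0.95), with 4 genes at 0 in the Capza2+/- nuclei and 5 in the wild-type nuclei. The part that free RNA has in the Ttr difference was not tested.

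Nptx1, a secreted pentraxin that gathers glutamate receptors at synapses, had at most 7 UMIs in any Capza2+/- nucleus. It was higher in the Capza2+/- nuclei in 7 of 8 clusters. It had 69 UMIs in 34 Capza2+/- nuclei and 32 in 21 wild-type nuclei, a log2 ratio of 1.35, and 0.91 without the Glis3/Chst9 cluster. The Nptx1 ratio was 1.27 in Reln+ Adarb2 nuclei, 1.02 in Mobp or Mog nuclei, 0.32 in Slc17a7 nuclei and 0.04 in Gad nuclei with 4 or fewer Adarb2 UMIs. Htr4, a serotonin receptor that couples to cAMP, had 202 UMIs in 41 Capza2+/- nuclei and 120 in 36 wild-type nuclei (log2 ratio 0.99, 0.66 to 1.33) and was higher in 6 of 8 clusters. Of its UMIs, 115 in the Capza2+/- library and 58 in the wild-type library lay in the Glis3/Chst9 cluster, whose own log2 ratio was 0.64. In Slc17a7 nuclei the Htr4 ratio was 0.07 and in Gad nuclei with 4 or fewer Adarb2 UMIs 0.13. The long noncoding RNA Rmst had 75 UMIs in the Capza2+/- and 25 in the wild-type nuclei, in 12 nuclei of each library (log2 ratio 1.83). Of the 75, 24 lay in 1 nucleus. Cntn4, a contactin, had the most counts of these genes, with 789 UMIs in the Capza2+/- and 589 in the wild-type nuclei (0.66, 0.51 to 0.82). The remaining higher genes were Vwc2l (1.21), Sv2b (1.08), Htr1f (0.84) and Ptprk (0.79). For Vwc2l, 1 Capza2+/- nucleus held 25.6% of that library's UMIs and 1 wild-type nucleus 32.8%. For Sv2b these shares were 25.3% and 31.0%. Vwc2l was higher in 3 clusters and lower in 3, and Htr1f higher in 4 and lower in 4.

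Of the 12 lowest genes, Hapln1 and Pld5 were leading genes of the Mctp2/Pde11a cluster, where Vcan too was far above the rest of the set (254 against 23.2 CPM). Hapln1, a link protein of the extracellular matrix, had 39 UMIs in the Capza2+/- nuclei and 121 in the wild-type nuclei (log2 ratio -1.39), and Vcan, the matrix proteoglycan versican, had 31 in the Capza2+/- and 95 in the wild-type nuclei (-1.37). Of these, 25 Hapln1 UMIs of the Capza2+/- library lay in 7 nuclei of that cluster and 102 of the wild-type library in 16. Scaled to the cluster's UMIs, Hapln1 was 226 CPM in the Capza2+/- nuclei and 508 CPM in the wild-type nuclei. In that cluster 1 wild-type nucleus held 33 of the 121 Hapln1 and 33 of the 95 Vcan UMIs of its library. Over the 8 clusters Vcan was lower in the Capza2+/- nuclei in 3 and higher in 4, and Hapln1 lower in 4 and higher in 3. Yjefn3, a leading gene of the Slc17a8/Yjefn3 cluster, had 22 UMIs in its 17 Capza2+/- nuclei and 92 in its 20 wild-type nuclei, and a log2 ratio of -1.25 over the whole set.

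Camkmt, which encodes a methyltransferase of calmodulin, was lower in 7 of 8 clusters. It had 74 UMIs in 40 of 89 Capza2+/- nuclei (44.9%) and 169 in 71 of 105 wild-type nuclei (67.6%), a log2 ratio of -0.95 (-1.36 to -0.55). No nucleus had more than 5 Camkmt UMIs in the Capza2+/- library or 8 in the wild-type library. Zfp618, a zinc finger protein, had 28 UMIs in 23 Capza2+/- nuclei and 80 in 43 wild-type nuclei (-1.27, -1.95 to -0.64) and was also lower in 7 of 8 clusters. Gdpd1, a lysophospholipase D, had 36 UMIs in 30 Capza2+/- nuclei and 87 in 55 wild-type nuclei (-1.03) and was lower in 6 of 8. Plcxd3 had 95 UMIs in the Capza2+/- and 190 in the wild-type nuclei (-0.76) and was lower in 7 of 8. The log2 ratios of the other lower genes were -1.06 for Parm1, -0.95 for Pard3b, -0.89 for Cdh20 and -0.67 for Slc22a23.

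**Figure D4:**
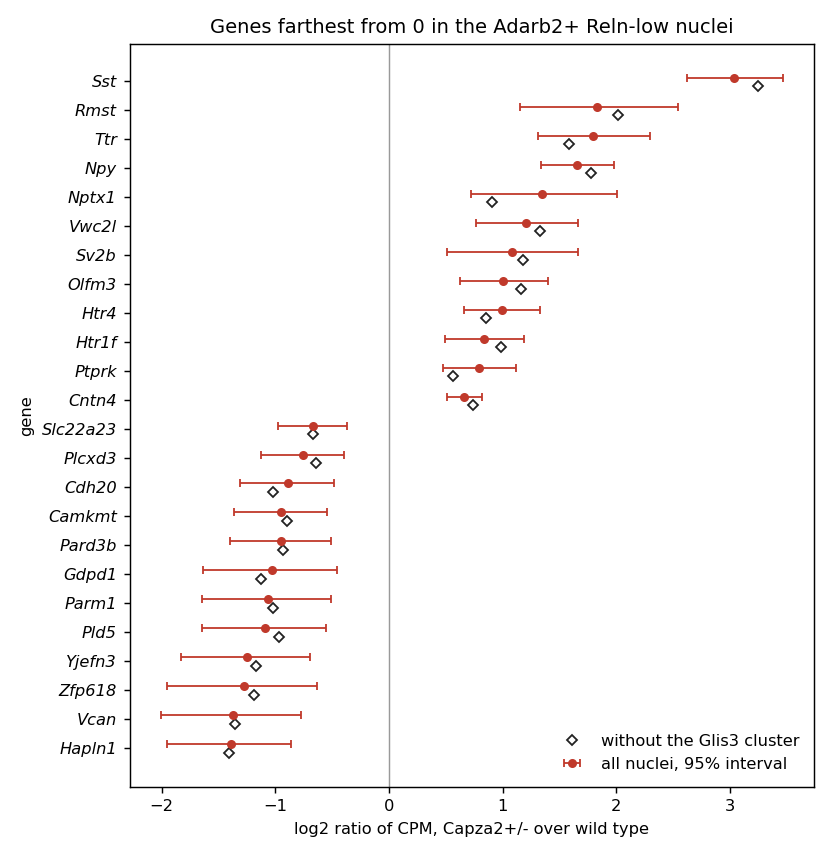
Log2 ratio of CPM, Capza2+/- over wild type, of the 12 highest and 12 lowest genes in the Adarb2+ Reln-low nuclei. Filled points are all nuclei with 95% counting intervals, open diamonds the nuclei without the Glis3/Chst9 cluster; Sst (3.03) and Npy (1.65) rest on 1 Capza2+/- nucleus.

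Without the Glis3/Chst9 cluster, 3296 genes had enough counts, of which 1.73% were 1.5-fold or more higher in the Capza2+/- nuclei and 2.64% were 1.5-fold or more lower. Tac2, the precursor of neurokinin B and one of the Vip-type markers, then passed the floor. It had 121 UMIs in 12 of 66 Capza2+/- nuclei (18.2%, 9.76 to 29.6%) and 13 UMIs in 5 of 89 wild-type nuclei (5.62%, 1.85 to 12.6%). The lowest, median and highest of the nuclei with a Tac2 UMI were 1, 9.5 and 22 UMIs in the Capza2+/- library and 1, 3 and 4 in the wild-type library, so the highest wild-type nucleus lay below the Capza2+/- median. The log2 ratio was 3.58 (2.75 to 4.53). Tac2 passed the floor only through its Capza2+/- UMIs, so a high ratio was partly fixed by that choice. By cluster, 76 of the 121 Capza2+/- UMIs lay in 6 nuclei of the Slc17a8/Yjefn3 cluster and 24 in 3 nuclei of the Grm8/Thsd7a cluster, and 7 of the 12 nuclei also had 3 or more Vip UMIs. In the Reln+ Adarb2 nuclei Tac2 was at 29.8 CPM in the Capza2+/- library and 30.8 CPM in the wild-type library. Slc17a7 nuclei had a Tac2 UMI in 0.896% of cases in the Capza2+/- library and 0.341% in the wild-type library.

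In this smaller set Sgcd, a sarcoglycan, was higher in the Capza2+/- nuclei in all 8 clusters of the full set, with 1400 UMIs in the Capza2+/- and 1173 in the wild-type nuclei (log2 ratio 0.62, 0.50 to 0.73). Schip1, a protein of the axon initial segment, had 432 UMIs in the Capza2+/- and 273 in the wild-type nuclei (1.02), with 105 of the 432 in 1 nucleus. On the lower side, Glis3 (-2.15) and C1ql3 (-1.19) are leading genes of the cluster that was removed. Maml2, a Notch coactivator, is one of the 12 dentate granule markers, all of which were higher in that cluster. It had 90 UMIs in the Capza2+/- and 213 in the wild-type nuclei (-0.88), and its log2 ratio over the full set was -0.29. Pcdh11x, a protocadherin, had 27 UMIs in the Capza2+/- and 75 in the wild-type nuclei (-1.11).

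Of the 16 Vip-type markers, 12 were higher in the Capza2+/- nuclei of the set and 3 lower, and 1 had no UMI in either library, with summed levels of 1693 CPM in the Capza2+/- nuclei and 1356 CPM in the wild-type nuclei (log2 ratio 0.32, 0.22 to 0.42). The same sum had log2 ratios of 0.52 (0.41 to 0.62) in Gad nuclei with 4 or fewer Adarb2 UMIs and 0.52 (0.46 to 0.57) in Slc17a7 nuclei of these libraries, and 0.11 (-0.04 to 0.27) in Reln+ Adarb2 nuclei. Only 4 of the 16 passed the floor, and 1 of these, the chemokine Cxcl14, was 1.5-fold higher (58.8 CPM in the Capza2+/- and 33.1 CPM in the wild-type nuclei). Of all 3959 genes past the floor, 2.02% were 1.5-fold or more higher and 1.89% lower. Penk, below the floor, had 56 UMIs in 17 Capza2+/- nuclei and 36 in 15 wild-type nuclei (0.88, 0.25 to 1.53). Calb2, the calcium-binding protein calretinin, had 8 Capza2+/- and 16 wild-type UMIs, with an interval of -2.19 to 0.55 for the log2 ratio. The 16 Cck-type markers summed to 2376 CPM in the Capza2+/- nuclei and 2508 CPM in the wild-type nuclei (-0.08), with 1 of 9 that passed the floor 1.5-fold higher and none lower. The 16 neurogliaform and Lamp5 markers had a median log2 ratio of -0.38 over the 7 past the floor, 6 of them below 0, with Npy the exception. The 17 identity factors of the caudal ganglionic eminence summed to 4978 CPM in the Capza2+/- and 4910 CPM in the wild-type nuclei, and Nfia, a nuclear factor that shapes interneuron identity, was the 1 of 8 past the floor that was 1.5-fold higher (314 against 208 CPM, Capza2+/- against wild type).

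None of the 9 genes past the floor for GABA synthesis, packaging and uptake was 1.5-fold higher or lower, but these include Gad1 and Gad2, whose counts chose the nuclei and whose levels are not read here. Slc32a1 was at 61.6 CPM in the Capza2+/- and 60.0 CPM in the wild-type nuclei, a log2 ratio of 0.04 (-0.46 to 0.53). Of 14 endocannabinoid genes past the floor, 7 were above 0 and 7 below. Mgll, the lipase that breaks down an endocannabinoid, was the 1 gene 1.5-fold lower, with 72 UMIs in 42 Capza2+/- nuclei and 143 in 57 wild-type nuclei (-0.75, -1.18 to -0.33). All 5 genes past the floor of the neuregulin and Erbb4 list lay below 0, with log2 ratios of -0.32 to -0.10. None of 12 GABA receptor subunits, 20 glutamate receptor genes or 33 voltage-gated and potassium channel genes past the floor was 1.5-fold higher or lower. Of all 3959 genes past the floor, 2.02% were 1.5-fold or more higher and 1.89% lower, so lists this short would hold few. Among the GABA and glutamate receptor genes Gabrg3 (-0.43) and Grin3a (-0.51) were lowest and Gabra5 (0.47) was highest of the GABA receptor subunits. Without the Glis3/Chst9 cluster Grin3a passed 1.5-fold (-0.59), as did 1 gene of the neuregulin and Erbb4 list. There 2.64% of all 3296 genes past the floor were 1.5-fold or more lower.

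Among receptors for peptides, Oprm1, the mu opioid receptor that in the hippocampus is known on interneurons, was at 118 CPM in the Capza2+/- nuclei and 72.6 CPM in the wild-type nuclei (log2 ratio 0.70, 0.30 to 1.10), with a UMI in 51 Capza2+/- and 46 wild-type nuclei. It was the 1 of 3 peptide receptor genes past the floor that was 1.5-fold higher. Of 7 serotonin and acetylcholine receptor genes past the floor, Htr4 and Htr1f were 1.5-fold higher and none was lower. Htr2c was at 269 CPM in the Capza2+/- and 220 CPM in the wild-type nuclei (0.29, 0.05 to 0.53), and Chrm2 at 226 CPM in the Capza2+/- and 282 CPM in the wild-type nuclei (-0.32). The 22 neuropeptide precursors summed to 2892 CPM in the Capza2+/- nuclei and 2101 CPM in the wild-type nuclei, with 13 higher, 8 lower and 1 without a UMI, and the sum holds the single nucleus with 352 Sst and 218 Npy UMIs. Of 28 synaptic adhesion genes past the floor 1, Cntn4, was 1.5-fold higher, and of 25 presynaptic release genes 1, Sv2b. For all 3959 genes past the floor these shares were 2.02% higher and 1.89% lower.

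Immediate early genes, which neurons switch on within minutes of activity, were counted less in the Capza2+/- nuclei. The list of 25 such genes summed to 325 UMIs (303 CPM) in the Capza2+/- nuclei and 535 UMIs (422 CPM) in the wild-type nuclei, a log2 ratio of -0.48 (-0.68 to -0.28). Of the 25, 18 were lower and 7 higher, and Homer1, a postsynaptic scaffold, was the only member past the floor (-0.16). Egr1, an activity-induced transcription factor, had 9 UMIs in 6 of 89 Capza2+/- nuclei (6.74%, 2.51 to 14.1%) and 57 UMIs in 25 of 105 wild-type nuclei (23.8%, 16.0 to 33.1%), with a log2 ratio of -2.42 (-3.62 to -1.40). No Capza2+/- nucleus had more than 2 Egr1 UMIs, while the highest wild-type nucleus had 6. Fos, a subunit of the AP1 transcription factor, had 11 UMIs in 6 Capza2+/- nuclei (6.74%) and 33 in 20 wild-type nuclei (19.0%), with a log2 ratio of -1.34 (-2.48 to -0.32). Nr4a3, a nuclear receptor, had 7 UMIs in 5 Capza2+/- nuclei (5.62%) and 34 in 17 wild-type nuclei (16.2%), with a log2 ratio of -2.04 (-3.46 to -0.84). Its relative Nr4a1 had 17 Capza2+/- and 38 wild-type UMIs (-0.92, -1.84 to -0.06). Jun, the partner of Fos, went the other way, with 35 Capza2+/- and 20 wild-type UMIs (1.05, 0.22 to 1.92), and the neurotrophin Bdnf had 31 Capza2+/- and 29 wild-type UMIs. Without the Glis3/Chst9 cluster Jun was at 0.27 (-0.85 to 1.38), Bdnf turned to -0.49 (-1.76 to 0.71) and Nr4a1 was at -0.80 (-1.72 to 0.06).

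Of the 57 Egr1 UMIs of the wild-type nuclei, 26 lay in 9 of the 11 wild-type nuclei of the Vip/Egfr cluster and 15 in the Slc17a8/Yjefn3 cluster. None of the 7 Capza2+/- nuclei of the Vip/Egfr cluster had an Egr1 UMI, which allows a share of up to 42.9%. Fos had 11 UMIs in 6 of the wild-type nuclei of that cluster and 2 UMIs in 1 of the Capza2+/- nuclei. Nr4a3 was spread more widely, with 10 of its 34 wild-type UMIs in the Pex5l/Ntng1 cluster and 10 in the Mctp2/Pde11a cluster. In the 155 nuclei without the Glis3/Chst9 cluster the list's log2 ratio was -0.67 (-0.90 to -0.44), and in that cluster alone it was 0.36 (-0.14 to 0.86).

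The list's ratio was below 0 in other nuclei of these libraries too, though its interval held 0 in the Reln+ Adarb2 nuclei. The log2 ratio was -0.14 (-0.42 to 0.14) in the Reln+ Adarb2 nuclei, -0.73 (-0.87 to -0.59) in Gad nuclei with 4 or fewer Adarb2 UMIs, -0.19 (-0.23 to -0.15) in Slc17a7 nuclei and -0.32 (-0.43 to -0.20) in Mobp or Mog nuclei. An Egr1 UMI was found in 19.6% of Capza2+/- and 18.5% of wild-type Reln+ Adarb2 nuclei and in 21.5% of Capza2+/- and 26.2% of wild-type Slc17a7 nuclei. Gad nuclei with 4 or fewer Adarb2 UMIs had an Egr1 log2 ratio of -0.81 (-1.37 to -0.27). There Fos was at -1.58 (-2.32 to -0.90), Nr4a3 at -2.18 (-3.15 to -1.31) and Nr4a1 at -0.97 (-1.68 to -0.30). In Slc17a7 nuclei Fos was at -0.14 and Nr4a3 at -0.36. In the set, 6.74% of the Capza2+/- nuclei had one, close to the 7.67% of Mobp or Mog nuclei of that library, which had a median of 1953 UMIs. The buffer used to free the nuclei contained actinomycin, which blocks transcription, per the labels' protocols. The labels do not state how long the tissue stood before freezing, and whether handling, depth or genotype moved these counts was not tested.

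**Figure D5:**
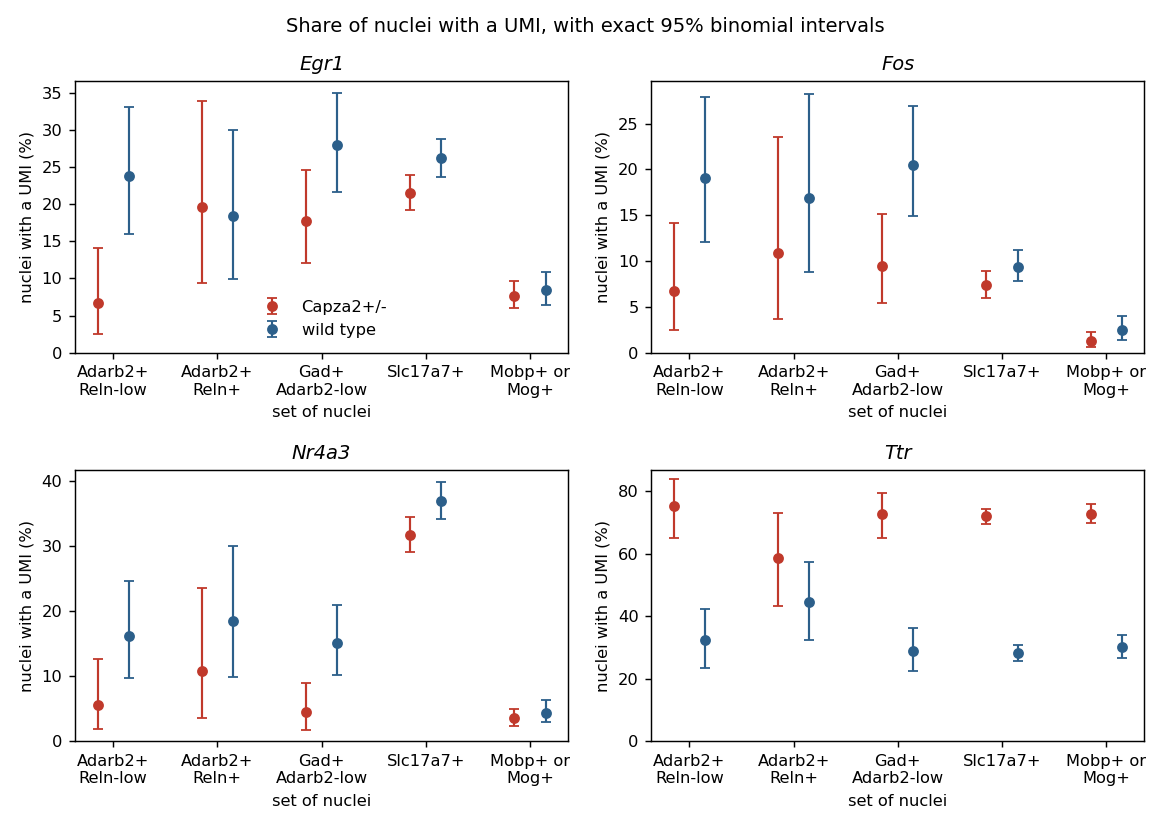
Share of nuclei with a UMI of Egr1, Fos, Nr4a3 and Ttr (panels) in 5 sets of nuclei, Capza2+/- library left and wild-type library right in each pair, with exact 95% binomial intervals. In the Adarb2+ Reln-low nuclei the Egr1 shares are 6.74% and 23.8% for Capza2+/- and wild type, and the Ttr shares are apart by a like amount in the Slc17a7 and the Mobp or Mog nuclei.

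The promoters of Fos and Nr4a1 are printed since both genes were lower in the Capza2+/- nuclei and both windows hold the motif more than once. They were chosen for print after the search, and the capitals again mark TGACG or CGTCA.
Fos, chr12:85473640-85473939, plus strand: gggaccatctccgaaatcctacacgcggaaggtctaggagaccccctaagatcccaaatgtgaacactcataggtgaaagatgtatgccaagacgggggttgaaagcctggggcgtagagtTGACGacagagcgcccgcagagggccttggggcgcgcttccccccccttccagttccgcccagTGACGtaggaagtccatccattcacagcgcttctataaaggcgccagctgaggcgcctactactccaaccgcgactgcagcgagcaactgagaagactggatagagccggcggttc
Nr4a1, chr15:101266596-101266895, plus strand: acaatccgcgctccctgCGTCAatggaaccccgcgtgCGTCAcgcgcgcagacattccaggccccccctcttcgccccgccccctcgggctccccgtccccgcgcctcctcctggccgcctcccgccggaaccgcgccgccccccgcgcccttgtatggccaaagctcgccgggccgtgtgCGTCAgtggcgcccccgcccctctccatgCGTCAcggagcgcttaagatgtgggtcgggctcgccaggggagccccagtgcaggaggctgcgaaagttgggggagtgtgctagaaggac
The Fos window held 2 matches and the Nr4a1 window 4. Of the 25 immediate early genes, 20 have a window in the table and 15 of these (75.0%) hold the motif, against 6228 of 27025 genes (23.0%) with a window.

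Against the Reln+ Adarb2 nuclei, the 155 nuclei without the Glis3/Chst9 cluster differed in genes the rule did not name. These ratios describe the choice of nuclei, and are given within each library. Of 5220 genes with enough counts, 0.498% were 2-fold or more higher in both libraries and 0.46% were 2-fold or more lower. Chrm2 was at 284 CPM in the set against 32.9 CPM in the Reln+ nuclei of the Capza2+/- library, and at 327 against 34.5 CPM in the wild-type library (log2 ratios 3.11 and 3.24). Vip was higher by log2 ratios of 5.40 in the Capza2+/- library and 2.97 in the wild-type library. Slc17a8, Mob3b, Slit2 and Enpp2 were the next highest. On the lower side Ndnf, a secreted factor of neurogliaform cells, was at 3.53 against 179 CPM in the Capza2+/- library and 11.9 against 328 CPM in the wild-type library. Crispld1 (log2 ratios -2.48 and -2.28), the receptor tyrosine kinase Kit (-1.72 and -2.31) and the sarcoglycan Sgcz (-1.57 and -1.39) were lower too, each value for the Capza2+/- and then the wild-type library.

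Against the Gad nuclei with 4 or fewer Adarb2 UMIs, 1.72% of 7601 genes were 2-fold or more higher in the set in both libraries and 1.8% were 2-fold or more lower. Besides Vip, the scavenger receptor Megf10 (log2 ratios 4.97 and 5.06 in the Capza2+/- and wild-type libraries), Cnr1 (3.89 and 4.28), Cadps2, which helps release dense vesicles (3.68 and 3.71), and the netrin-like Ntng1 (3.57 and 3.73) were among the highest. Of 16 medial ganglionic eminence markers with enough counts, 11 were 2-fold or more lower in both libraries. Tac1, the precursor of substance P, was at 3.53 against 43.5 CPM in the Capza2+/- library and 5.49 against 69.1 CPM in the wild-type library. Crhbp, which binds corticotropin-releasing hormone, had log2 ratios of -5.13 in the Capza2+/- library and -3.48 in the wild-type library. Of the markers fixed for the other kinds, 4 of 7 Vip-type and 7 of 12 Cck-type genes with enough counts were 2-fold or more higher in the set.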

How the data were processed

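The values are raw UMI counts per gene and barcode in 1 Capza2+/- and 1 wild-type library, deposited by the authors as count matrices. Cell Ranger 7.1.0 and the mm10 build are named, per the submitters' processing notes, with no word on how intronic reads were counted. From these counts the set was taken by its rule, UMIs were summed per library and scaled to a total of 1000000 (CPM). Exact Poisson intervals were used for sums, exact Clopper-Pearson intervals for shares and conditional binomial intervals for ratios, checked on simulated data, and no test was run. The set was clustered with scanpy 1.11.5 (1000 variable genes, 15 components, 15 neighbours, Leiden resolution 1). Doublets were scored with Scrublet at 0.8% per 1000 barcodes. The 33 gene lists, the members and the named genes were chosen with earlier results of these data known. Named genes are the 12 highest and 12 lowest past the floor of 100 UMIs and 10% of nuclei, ranked by the interval bound nearest 0, with mitochondrial, Xist, Tsix, Y-linked and rule genes and unnamed gene models left out; against other Gad nuclei, from the 12 highest and 8 lowest; for each list, up to 5 genes past the floor with the most UMIs or the largest ratio; for clusters, the 6 leading genes. Penk, Calb2, Capzb, Fos, Egr1, Nr4a1, Nr4a3, Jun and Bdnf lie below the floor; these, other than Capzb, and the cluster level of Vcan were named after their values were seen. Coordinates are from the GENCODE annotation of GRCm38, in which 32158 of 32285 gene identifiers were found. Alternatives were the doublets left out, other limits of the rule and the floor, thinning to 2000 UMIs, equal weight per nucleus, scaling by the median ratio, and, added after seeing the data, the set without the Glis3/Chst9 cluster and with equal cluster shares.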

Additional observations from a re-analysis of the deposited data

How the results depend on the processing

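No paired analysis was possible because each genotype has 1 library, so the groups share fewer than 2 replicate numbers. The 155 genes that differed 1.5-fold or more became 28 with every nucleus thinned to 2000 UMIs, 70 in nuclei with 3 or more Vip UMIs, 245 with every nucleus weighted alike, 34 with a floor of 200 UMIs and 1622 with a floor of 20 UMIs and no minimum share of nuclei; the other alternatives gave 135 to 173. The Capza2 log2 ratio of -0.44 became 0.24 after thinning and -1.06 in nuclei with 3 or more Vip UMIs. The ratio of the shares with 3 or more Vip UMIs, 0.931, became 2.06 after thinning. The ratio of the set's shares among Gad nuclei, 1.03, became 0.934 with the Glis3/Chst9 cluster left out of both counts. Leaving out the nucleus with the most UMIs of the gene in each library turned Sst to -0.58 and Npy to -0.065. In nuclei with 3 or more Vip UMIs, Olfm3 turned to -0.18, Cntn4 to -0.52, Cdh20 to 0.11 and Slc22a23 to 0.17. Thinning turned Camkmt to 0.24. Thinning and small subsets leave few UMIs per gene; the cause of the other shifts was not tested. Depth limits most of all the sparse genes: 61 and 98 Capza2 UMIs in the Capza2+/- and wild-type nuclei do not resolve a difference of the size seen.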

Other observations

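Of the marker lists of glia and blood given here, only the microglia sum had a ratio in the Adarb2+ Reln-low nuclei with an interval clear of 0. The 12 astrocyte markers summed to 987 CPM in the Capza2+/- nuclei and 1048 CPM in the wild-type nuclei (log2 ratio -0.09, -0.20 to 0.03), and the 10 oligodendrocyte precursor markers to 1102 CPM in the Capza2+/- and 1148 CPM in the wild-type nuclei (-0.06, -0.17 to 0.05). The 12 microglia markers summed to 182 UMIs in the Capza2+/- nuclei and 128 in the wild-type nuclei (log2 ratio 0.75, 0.42 to 1.09). Of these, 1 Capza2+/- nucleus held 44 and 1 wild-type nucleus 21, while the median was 1 UMI per nucleus in both libraries. In the Capza2+/- nuclei 11 of the markers were higher, and 1 was at 0 in both libraries. P2ry12, a purine receptor of microglia and the only one past the floor, had 79 Capza2+/- and 82 wild-type UMIs (0.19, -0.28 to 0.65). The 12 oligodendrocyte markers summed to 186 CPM in the Capza2+/- nuclei and 182 CPM in the wild-type nuclei, a level held down by the selection rule, which limits Mobp and Mog. The 4 hemoglobin genes had 23 Capza2+/- and 15 wild-type UMIs.

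The 13 mitochondrially encoded transcripts summed to 710 CPM in the Capza2+/- nuclei and 1128 CPM in the wild-type nuclei (log2 ratio -0.67), with 6 of 8 past the floor 1.5-fold or more lower. Their share is limited by the selection rule, and the same sum had a log2 ratio of -0.84 in Slc17a7 nuclei of these libraries. Chaperones of the endoplasmic reticulum and heat shock genes summed to 1239 CPM in the Capza2+/- and 1139 CPM in the wild-type nuclei (0.12, 0.01 to 0.23), or 0.03 (-0.09 to 0.15) without the Glis3/Chst9 cluster and 0.49 (0.22 to 0.76) in that cluster alone, and none of the 9 past the floor was 1.5-fold higher or lower. Over all 3959 genes past the floor, 2.02% were 1.5-fold or more higher and 1.89% lower.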
